A study of Mus musculus with 4 samples.

Results

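The genes described here encode matricellular and matrix remodeling proteins of the heart, and were taken as all probe sets whose single gene symbol is Thbs1, Thbs2, Thbs4, Postn, Sparc, Tnc, Fn1, Spp1, Timp1 or Lox. Of these 10 genes, 9 were measured, on 18 of the 45101 probe sets of the array, and they stand among 18193 genes with a probe set of their own. Spp1 was not analysed here. The RNA came, by the labels, from mouse hearts, 2 arrays per group. The study's methods describe the mice as adults on a C57BL/6J background. By the study's methods, the arrays labelled Rhau KO are CAAG-ERT2-Cre;Rhau F/F. In such mice a broadly active promoter drives a Cre recombinase that tamoxifen switches on. The floxed Rhau gene can so be cut in many cell types. By the same methods, the arrays labelled Control are Rhau F/F, which carry the same floxed gene and no Cre. Mice of both genotypes received 5 doses of tamoxifen by intraperitoneal injection at 2 months of age and were studied 2 months later, so tamoxifen is shared by the groups while Cre is not. Whether the replicates were separate animals is not stated in the labels or methods, and p-values then measure only the spread between these samples.

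Matricellular proteins are secreted into the extracellular matrix but act mainly as signals, binding integrins, CD36, CD47, syndecans, proteases and growth factors, rather than bearing load. Several of them, such as periostin and tenascin-C, are sparse in the resting adult heart and are known to be induced in fibroblasts and muscle cells after injury or pressure overload. Fibronectin is the adhesive scaffold on which new matrix is laid, lysyl oxidase crosslinks collagen and elastin, and TIMP-1 inhibits the metalloproteinases that degrade them.

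The arrays did not sit with their labels in every respect. Dhx36, which encodes RHAU, read 568 and 537 under the Rhau KO label and 327 and 194 under the Control label. It was higher under the Rhau KO label on 3 of 3 probe sets, opposite to a loss of this RNA. For protein, the paper reported effective deletion by Western blot in hearts of tamoxifen-treated mice of the Cre genotype. Whether the probe sets cover the floxed part of the gene was not tested. Whether the labels were exchanged was not tested, so groups are named by array label throughout. Every direction given here is a direction between labels. Control replicate 1 was unlike the other arrays: Tnni3 (cardiac troponin I) read 10.3 there and 37838 to 39371 elsewhere, and Myh4, a fast skeletal muscle myosin, read 43654 there and at most 80.4 elsewhere. Its Pearson r with the other arrays over all probe sets was 0.872 to 0.873, against 0.923 to 0.926 among the other 3. Esr1, an estrogen receptor gene, read 5.40 and 25.5 under the Rhau KO label and 18036 and 19847 under the Control label. Control replicate 2 carried the highest heat shock transcripts, with Hspa1a at 18079 and at most 1141 elsewhere. Every comparison is accordingly given with all 4 arrays and without Control replicate 1. In the latter the Control label is 1 array, so its standard errors and p-values carry no spread within that label.

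With all 4 arrays, none of the 9 genes passed an adjusted p under 0.05 in limma, where the share called over all genes was 0% (0 of 18193 genes, while 785 had an unadjusted p under 0.05). At the thresholds the study applied to its arrays, 2-fold or more at an unadjusted p under 0.05, Thbs1 was the 1 gene called lower under the Rhau KO label and 0 were called higher, against 1.64% and 1.65% of all genes. In the fit without Control replicate 1, again 0 of 9 passed the adjusted threshold, passed by 0.819% of all genes. Thbs1 remained the 1 gene called lower and 0 were called higher there, against 1.54% and 2.96% of all genes. The median log2 difference, Rhau KO minus Control, over the 9 genes was -0.78 with all arrays and -0.22 without Control replicate 1, beside 0.09 and 0.03 over all genes. It was -0.19 with all arrays when each gene was averaged over its probe sets, dim ones included. The mean log2 intensity was lower under the Rhau KO label for 6 of 9 genes with all arrays and for 5 of 9 without Control replicate 1, but 5 genes (Thbs4, Postn, Tnc, Timp1 and Lox) had the opposite sign in the 2 fits, as did 29.2% of all genes. Without Control replicate 1, Tnc (0.00064), Timp1 (-0.28) and Lox (0.10) lay within 1 standard error of no difference.

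**Figure D1:**
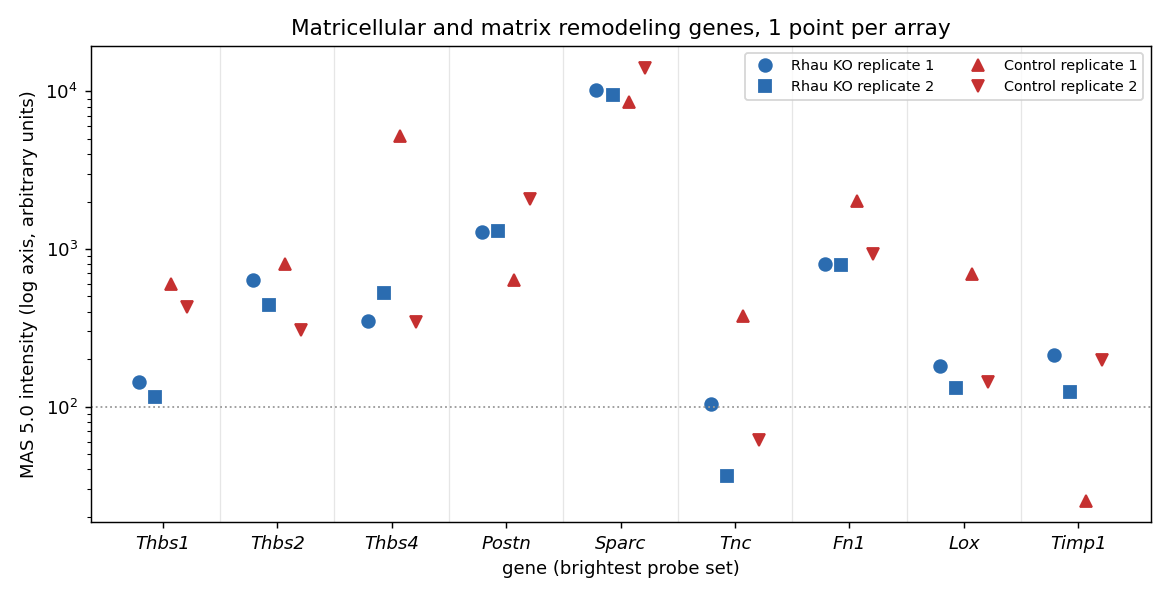
MAS 5.0 intensity (log axis) of the brightest probe set of each of the 9 genes, with 1 point per array (circle and square, Rhau KO replicates 1 and 2; upward and downward triangle, Control replicates 1 and 2) and a dotted line at 100. Thbs1 and Fn1 have both Rhau KO points under both Control points, and Control replicate 1 lies alone at the top for Thbs4, Tnc, Fn1 and Lox and alone at the bottom for Postn and Timp1.

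Thbs1, which encodes thrombospondin-1, a trimeric glycoprotein known for inhibiting vessel growth and releasing latent TGF-beta, showed the clearest separation of the labels. Its intensity was 143 and 115 under the Rhau KO label and 598 and 431 under the Control label. Both Rhau KO arrays lay below both Control arrays, with means of 129 ± 20.1 (SD, n = 2) and 514 ± 118 (SD, n = 2). The log2 difference was -1.98 (standard error 0.34), a 3.96-fold lower level, with an unadjusted p = 0.00295 and an adjusted p = 0.873 in limma. Leaving out Control replicate 1 gave -1.75 (standard error 0.32, adjusted p = 0.106 in limma), so the direction did not rest on that array, and Control replicate 2 alone read 431 against 143 for the higher Rhau KO array. A second Thbs1 probe set read 148 and 55.5 against 290 and 210, again without overlap, with a log2 difference of -1.45 (standard error 0.58) and -1.21 (standard error 0.64) without Control replicate 1. An exact permutation test of 2 arrays against 2, two-sided, cannot give a p under 0.333, which is its value for this gene. In RNA from whole tissue, fewer cells of a type and less RNA per cell cannot be told apart.

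Thbs2 encodes thrombospondin-2, which resembles thrombospondin-1 in structure and is known for its part in collagen fibril assembly and in the integrity of the stressed heart. Its brightest probe set read 635 and 441 under the Rhau KO label and 799 and 305 under the Control label. The Rhau KO arrays lay between the Control arrays, and the log2 difference was 0.10 (standard error 0.55, adjusted p = 0.974 in limma). The same order, Control replicate 1 highest and Control replicate 2 lowest, appeared on the 2 further probe sets, at 347 and 249 (Control 528 and 211) on the first and 413 and 350 (Control 684 and 174) on the second. With Control replicate 1 left out, the 3 probe sets gave 0.79 (standard error 0.27), 0.48 (standard error 0.30) and 1.13 (standard error 0.24), with adjusted p = 0.304 for the brightest in limma. The spread within the Control label, 799 against 305, was thus wider than that within the Rhau KO label.

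Thbs4 encodes thrombospondin-4, a pentameric thrombospondin of muscle and tendon matrix that is known to be induced in the overloaded heart. It read 348 and 524 under the Rhau KO label and 5183 and 344 under the Control label. The outlying array was Control replicate 1, 9.89-fold above the next, whereas the other 3 arrays lay within 1.52-fold of each other. The log2 difference was -1.64 (standard error 1.33, adjusted p = 0.873 in limma) with all arrays and 0.31 (standard error 0.30, adjusted p = 0.729) without Control replicate 1. The lower Rhau KO array and Control replicate 2 differed by 1.01-fold, and no difference between the labels larger than the spread of the arrays was measured for this gene.

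Postn encodes periostin, a fasciclin-domain protein that marks activated fibroblasts of the injured heart. Its intensity was 1280 and 1309 under the Rhau KO label and 633 and 2068 under the Control label. The Rhau KO arrays agreed closely with each other (1295 ± 20.4, SD, n = 2) and lay between the 2 Control arrays (1351 ± 1015, SD, n = 2). The log2 difference was 0.18 (standard error 0.60, adjusted p = 0.956 in limma) and turned to -0.68 without Control replicate 1, where the Control label is 1 array. The lowest array was Control replicate 1, 2.02-fold under the next.

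Sparc encodes SPARC, also called osteonectin, a collagen-binding protein that assists the processing of procollagen into fibrils. Its brightest probe set read 10262 and 9474 under the Rhau KO label and 8536 and 14150 under the Control label, so the Rhau KO arrays again lay between the Control arrays. A second bright probe set read 3645 and 3612 against 3578 and 5356, with the same array highest and the same array lowest. The 2 probe sets gave log2 differences of -0.16 (standard error 0.30) and -0.27 (standard error 0.27) with all arrays, and -0.52 (standard error 0.10) and -0.56 (standard error 0.10) without Control replicate 1. The adjusted p of the brightest was 0.922 and 0.109 in limma. Sparc spanned the narrowest range of the 9 genes over the 4 arrays, 0.73 on the log2 scale. The remaining probe set was dim, at 53.2 and 58.1 against 65.1 and 17.8, and had Control replicate 2 as its lowest array.

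Tnc encodes tenascin-C, a hexameric glycoprotein of developing and wounded tissue and of tendon. It read 104 and 36.1 under the Rhau KO label and 374 and 61.2 under the Control label. Control replicate 1 was 3.60-fold above the next array, and the Rhau KO arrays differed from each other by 2.87-fold. The log2 difference was -1.30 (standard error 1.07, adjusted p = 0.873 in limma) and came to 0.00 (standard error 0.79) once Control replicate 1 was left out. The second Tnc probe set read 1.92 and 19.9 against 8.34 and 5.30, all far under 100, and its order of arrays was different.

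Fn1 encodes fibronectin, the ligand of integrins such as alpha5 beta1 and a core of the provisional matrix. Its brightest probe set read 808 and 787 under the Rhau KO label and 2020 and 931 under the Control label. The Rhau KO arrays were close together (798 ± 15.1, SD, n = 2) and both lay below both Control arrays (1475 ± 770, SD, n = 2). Control replicate 1 was 2.17-fold above the next array, and Control replicate 2 was 1.15-fold above the higher Rhau KO array. The log2 difference was accordingly -0.78 (standard error 0.43, adjusted p = 0.873 in limma) with all arrays and -0.22 (standard error 0.15, adjusted p = 0.605) without Control replicate 1. A second, dim probe set read 60.8 and 59.3 against 47.5 and 44.0, with the Rhau KO arrays above, and its log2 difference of 0.39 (standard error 0.48) had the opposite sign. Of the 9 genes, 2 (Thbs1 and Fn1) had both Rhau KO arrays below both Control arrays, against 14.6% of all genes, and 0 had them above, against 21.7%.

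Lox encodes lysyl oxidase, the copper enzyme that starts the crosslinking of collagen and elastin. It read 181 and 132 under the Rhau KO label and 698 and 144 under the Control label. A second probe set read 41.4 and 95.8 against 342 and 80.9, and both had Control replicate 1 far above the rest, by 3.87-fold for the brightest. The log2 differences of -1.04 (standard error 0.83, adjusted p = 0.873 in limma) and -1.40 (standard error 0.86) became 0.10 (standard error 0.38, adjusted p = 0.941) and -0.36 (standard error 0.69) without that array. The remaining Lox probe set was dim, at 18.5 and 19.3 against 30.4 and 19.7.

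Timp1 encodes TIMP-1, a secreted inhibitor of metalloproteinases that is induced with inflammation and fibrosis. It was the reverse of Lox in its outlying array, at 212 and 124 under the Rhau KO label and 25.3 and 197 under the Control label. Control replicate 1 was the lowest array, 4.88-fold under the next, and the other 3 lay within 1.72-fold of each other. The log2 difference of 1.20 (standard error 1.08, adjusted p = 0.873 in limma) turned to -0.28 (standard error 0.43, adjusted p = 0.843) without Control replicate 1.

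**Figure D2:**
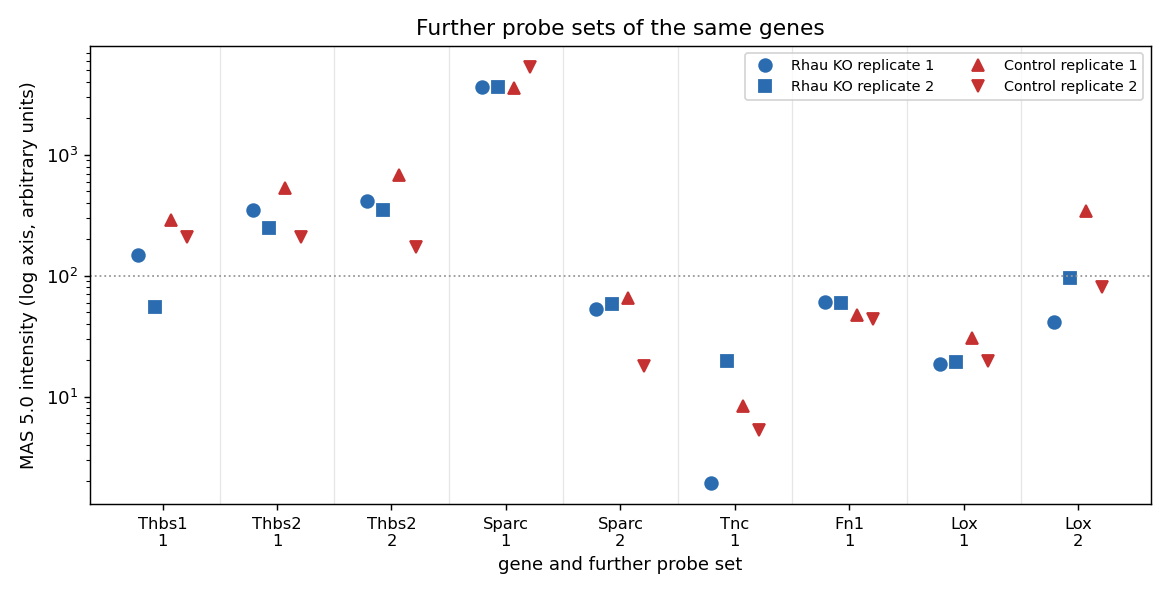
MAS 5.0 intensity (log axis) of the 9 further probe sets of Thbs1, Thbs2, Sparc, Tnc, Fn1 and Lox, with 1 point per array, the same symbols as for the brightest probe sets and a dotted line at 100. The further probe sets of Thbs1 and Thbs2 and the brighter one of Sparc repeat the order of arrays of the brightest probe sets, and those of Tnc and Fn1, all under 100, do not.

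**Figure D3:**
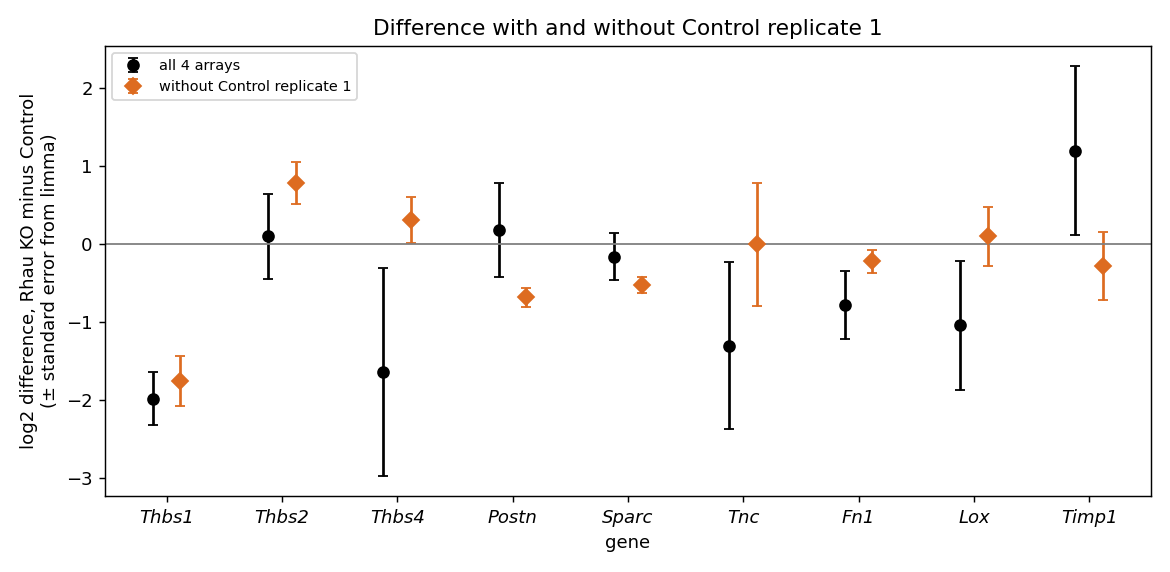
Log2 difference, Rhau KO minus Control, of the brightest probe set of each gene, with all 4 arrays (black circles) and without Control replicate 1 (orange diamonds), and error bars of 1 standard error from limma. Thbs1 stays far under 0 in both fits (-1.98 and -1.75), while Thbs4, Postn, Tnc, Timp1 and Lox have the opposite sign in the 2 fits. Without Control replicate 1, the error bars of Tnc, Timp1 and Lox reach across 0.

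Control replicate 1 was the array that most often stood out. It was more than 2-fold above every other array for 4 of 9 genes (Thbs4, Tnc, Fn1 and Lox), against 6.05% of all genes, and more than 2-fold below every other array for 2 of 9 (Postn and Timp1), against 11.3%. No other array was more than 2-fold beyond the rest for any of the 9 genes, as each was on either side for 1.81% to 3.69% of all genes. The highest of the 4 arrays was Control replicate 1 for 6 of 9 genes and Control replicate 2 for 2, against 29.9% and 23.8% of all genes. On the 3 arrays without Control replicate 1, both Rhau KO arrays were below Control replicate 2 for Thbs1, Postn, Sparc and Fn1 (4 of 9, against 33.3% of all genes) and above it for Thbs2 and Thbs4 (2 of 9, against 39.6%). An unadjusted p under 0.05 was reached by 4 of 9 genes in that fit (Thbs1, Thbs2, Postn and Sparc) and by 2425 of 18193 genes overall. Had Control replicate 2 been left out instead, the Control label would have been Control replicate 1 alone. The median log2 difference of the 9 genes was then -1.34.

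The 250 bases upstream of the listed transcription start are printed for Thbs4 and Tnc, which read highest on Control replicate 1, and for Postn and Timp1, which read lowest there, so that the opposite patterns can be set beside their sequences. They are RefSeq sequences of GRCm38.p6, read on the strand of the gene, at chr13:92794819-92795068 (minus strand) for Thbs4, chr4:64047016-64047265 (minus strand) for Tnc, chr3:54359017-54359266 (plus strand) for Postn and chrX:20869916-20870165 (plus strand) for Timp1. The most upstream start was taken for Tnc and Postn, which have 2 listed. Of the 10 genes, 7 had a promoter in the table used, and Thbs1, Fn1 and Spp1 had none. Capitals mark the motifs found on either strand.
Thbs4: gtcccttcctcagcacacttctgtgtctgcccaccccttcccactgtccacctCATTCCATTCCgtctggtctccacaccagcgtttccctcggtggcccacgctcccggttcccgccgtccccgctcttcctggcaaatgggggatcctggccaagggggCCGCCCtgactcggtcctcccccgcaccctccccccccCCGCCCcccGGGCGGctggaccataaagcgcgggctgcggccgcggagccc
Tnc: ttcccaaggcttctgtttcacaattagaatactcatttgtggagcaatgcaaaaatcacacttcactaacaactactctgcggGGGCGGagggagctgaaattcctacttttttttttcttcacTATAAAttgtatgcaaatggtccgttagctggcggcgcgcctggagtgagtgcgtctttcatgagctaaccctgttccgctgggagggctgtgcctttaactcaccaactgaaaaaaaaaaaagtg
Postn: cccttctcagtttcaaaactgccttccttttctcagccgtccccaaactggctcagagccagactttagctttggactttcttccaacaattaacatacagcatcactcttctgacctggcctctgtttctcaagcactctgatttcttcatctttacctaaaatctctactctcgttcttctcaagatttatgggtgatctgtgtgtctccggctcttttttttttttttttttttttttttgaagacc
Timp1: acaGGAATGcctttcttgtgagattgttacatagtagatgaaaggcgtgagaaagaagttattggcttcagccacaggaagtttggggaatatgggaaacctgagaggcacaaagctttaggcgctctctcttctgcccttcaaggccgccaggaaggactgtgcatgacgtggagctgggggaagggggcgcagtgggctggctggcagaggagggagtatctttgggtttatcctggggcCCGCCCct
The motifs were chosen after the values were seen. They were the AP-1 site TGANTCA (in 6.75% of 32851 promoters of this length), the TATA box TATAAA (12.4%), the MCAT element CATTCC known from muscle promoters (12.6%), the E-box CAGCTG bound by myogenic factors (13%) and the GC box GGGCGG (32.7%). The Thbs4 window held 2 MCAT elements, which overlap and begin at positions -197 and -192 counted from the start site, and 3 GC boxes. That of Tnc held a match to the letters TATAAA at -126 and a GC box at -167, and that of Timp1 an MCAT element at -247 and a GC box at -8. The Postn window held none of these motifs. The windows of Thbs2 and Sparc were also searched, though not printed. That of Thbs2 held a TATAAA match at -126, and that of Sparc a CAGCTG match at -60. The Lox window was not searched. A match of letters is a description of the sequence, and its use in these hearts was not tested.

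The 3 genes with the widest ranges, Thbs4, Tnc and Timp1, were set beside the 10817 genes with a mean intensity of at least 100 over the 4 arrays (which Tnc and Zfp423 passed through Control replicate 1), and likeness was taken as the root mean square difference of log2 intensities centred on the mean of the 4 arrays. Nearest to Thbs4 were Chac1 (0.113), Kcna7 (0.168) and Comp (0.182), which encodes another pentameric thrombospondin. Comp read 102 and 210 under the Rhau KO label and 1563 and 104 under the Control label. Of the other genes described here, Lox ranked 199 in likeness to Thbs4, and the rest from 298 (Tnc) to 10600 (Timp1). Nearest to Tnc were Zfp423 (0.113), Kcnab1 (0.188) and Nup210 (0.266). Lox was 23rd of 10816 genes, and the rest of the genes described here ranked from 454 (Fn1) to 10526 (Timp1). Nearest to Timp1 were C2cd4b (0.111), Adcy5 (0.127) and Tnks1bp1 (0.141). Postn ranked 928, and the rest of the genes described here from 3436 (Sparc) to 10675 (Thbs4). Each of the 3 genes had Control replicate 1 as its outlying array, so these likenesses and ranks rest largely on that array.

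Other matrix genes, taken from 8 lists of 141 measured genes without the 9 described above, were examined in the same fits. With all arrays 3 were called higher at a fold of 2 (2.13%: Ccn4, Mmp8 and Mmp11) and 0 lower, and 0 passed the adjusted threshold in limma (5 had an unadjusted p under 0.05). Their median log2 difference was 0.12, and -0.12 without Control replicate 1, where 1 was called higher (Ccn4), 2 lower (P4ha1 and Serpinh1) and P4ha1 passed the adjusted threshold. Control replicate 1 was more than 2-fold above every other array for 13 of them (9.22%) and more than 2-fold below for 26 (18.4%).

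Among 23 other matricellular genes, Ccn4, a CCN family protein also known as WISP1, read 98.6 and 65.0 under the Rhau KO label and 34.6 and 21.4 under the Control label, without overlap. It was dim, under 100 on every array. Its log2 difference was 1.56 (standard error 0.57, adjusted p = 0.873 in limma), and 0 other genes of that list were called. Thbs3, a close relative of Thbs4, read 132 and 174 against 172 and 174, and did not share its high value on Control replicate 1. Of 19 receptors of these proteins, 0 were called in either fit. The receptor with the smallest p was Itgav, the alpha v subunit of integrins that bind periostin, fibronectin and osteopontin, at 2217 and 2102 against 3478 and 3781. Both Control arrays lay above both Rhau KO arrays there (log2 difference -0.75, standard error 0.19, adjusted p = 0.873, and 0.0526 without Control replicate 1).

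Of 30 matrix proteases, 2 were called higher, of which Mmp11 (stromelysin-3) read 214 and 238 under the Rhau KO label and 87.8 and 130 under the Control label, and Mmp8 (neutrophil collagenase) was dim at 23.3 and 26.7 against 2.10 and 5.88. Without Control replicate 1 neither was called, although Mmp11 was still 1.73-fold higher (2.11-fold with all arrays) and Mmp8 4.24-fold (7.10-fold with all arrays). None of 9 protease inhibitors other than Timp1 was called with all arrays. Timp4, the member of the TIMP family best known from the heart, read 2974 and 3932 against 2512 and 2011, with the Rhau KO arrays above the Control arrays (log2 difference 0.61, standard error 0.25, adjusted p = 0.873 in limma). Timp3 read 4913 and 5978 against 3838 and 4657, also without overlap, and for neither was Control replicate 1 more than 2-fold below every other array, as it was for Timp1.

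The 19 genes of crosslinking and collagen processing had no call with all arrays. Without Control replicate 1, P4ha1 (a prolyl 4-hydroxylase subunit) was lower with an adjusted p = 0.0231 in limma, and Serpinh1, the heat shock inducible collagen chaperone HSP47, had an adjusted p = 0.0541. P4ha1 read 952 and 1037 under the Rhau KO label and 661 and 2584 under the Control label, and Serpinh1 read 4500 and 3640 against 1141 and 8353. Both were highest on Control replicate 2 and lowest on Control replicate 1, the order also seen for Postn and Sparc. On Control replicate 2 the summed intensity of 9 heat shock genes was 205373, against 58596 to 92055 on the other arrays, and 5 of these 9 were called lower under the Rhau KO label without Control replicate 1. The part of the heat shock difference in those of Postn and Sparc was not tested.

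The 9 fibrillar collagen genes had 0 calls in either fit and a median log2 difference of -0.73, which was -0.32 without Control replicate 1, and 8 of 9 had the lower mean under the Rhau KO label in each fit. Over all genes the medians were 0.09 and 0.03. Of these collagen genes, Col2a1, Col11a1 and Col11a2 were dim, under 100 on the arrays other than Control replicate 1. Without Control replicate 1 the comparison is with Control replicate 2 alone. There the mean was also lower for 17 of 19 crosslinking and processing genes, 19 of 30 proteases and 10 of 15 proteoglycans. It was lower for 10 of 19 receptors, 11 of 23 other matricellular genes, 8 of 18 elastic fibre genes and 4 of 9 protease inhibitors. Col1a1 read 388 and 393 under the Rhau KO label and 938 and 449 under the Control label. Col1a2 read 4456 and 3748 against 11014 and 5037. For both, as for Fn1, the groups did not overlap and most of the gap came from Control replicate 1. The 15 proteoglycans (median 0.23, and -0.21 without Control replicate 1), the 18 elastic fibre genes and other glycoproteins (0.34 and 0.02) and the 10 TGF-beta ligands and readouts (-0.02 and 0.05) had 0 calls in either fit. Ogn, a small leucine-rich proteoglycan, had the smallest p among the proteoglycans, at 6661 and 6813 against 4867 and 4524.

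Marker genes of the cells that could supply these transcripts were read beside them. The summed intensity of 14 fibroblast markers was 84814 and 92192 under the Rhau KO label and 99959 and 97083 under the Control label, and 0 were called. On Control replicate 1, 2 of the 14 were more than 2-fold above every other array (Col1a1 and Col1a2) and 2 more than 2-fold below (Lum and Tcf21, the latter at 4.90 against 421 to 700). Of 11 markers of activated fibroblasts, 1 was called: Acta2, smooth muscle actin, at 11023 and 6699 under the Rhau KO label and 4452 and 2590 under the Control label. Its log2 difference was 1.34 (standard error 0.40, adjusted p = 0.873 in limma), opposite in sign to that of Thbs1. It is also 1 of 9 smooth muscle and pericyte markers, the other 8 of which were not called. Of the 11 activated fibroblast markers, 4 had the lower and 7 the higher mean with all arrays (median log2 difference 0.04). Without Control replicate 1, 6 were lower and 5 higher (median -0.23). Fap read 438 and 390 under the Rhau KO label and 765 and 567 under the Control label. Cilp read 337 and 295 against 1784 and 417, so for both the Rhau KO arrays lay below the Control arrays.

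Most tendon and skeletal muscle markers were more than 2-fold above every other array on Control replicate 1, as were Thbs4, Tnc, Fn1 and Lox. Thbs1 and Thbs2 also read highest there, 1.39-fold and 1.26-fold above the next array. The part of these markers in the values of those genes was not tested. The summed intensity of 8 tendon markers was 1101 and 1142 under the Rhau KO label and 20568 and 3215 under the Control label, and 6 of 8 were more than 2-fold above every other array on Control replicate 1. Tenomodulin (Tnmd) read 2379 there and 3.45 to 42.2 elsewhere, and fibromodulin (Fmod) read 13542 there and 35.5 to 89.1 elsewhere. The tendon transcription factor Scx, at 50.6 and 133 against 130 and 129, was not more than 2-fold above the rest on that array, and Egr1 was highest on Control replicate 2, at 2839. The 17 skeletal muscle markers summed to 56863 and 57562 against 664985 and 71700, with 15 of 17 more than 2-fold above every other array on Control replicate 1. The 13 ventricular cardiomyocyte markers summed to 479922 and 481508 against 104104 and 481384, with 10 of 13 more than 2-fold below every other array there. With all arrays Tnmd and Acta1 were the genes of these 3 lists called lower and 0 were called higher. Without Control replicate 1 Tnmd and Egr1 were called lower and Mkx higher. In that fit Tnmd (4.55 and 3.45 against 42.2) and Mkx (55.1 and 24.4 against 1.94) were dim, under 100 on every array used. Acta1 was then 1.97-fold lower, just under a fold of 2, and passed the adjusted threshold (log2 difference -0.98, against -1.03 with all arrays, adjusted p = 0.0171 in limma).

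Of the remaining marker lists, Control replicate 1 was more than 2-fold above every other array for 5 of 7 satellite cell markers, 2 of 4 adipocyte markers, 2 of 6 cartilage and valve markers and 1 of 6 atrial markers. It was more than 2-fold below every other array for 9 of 11 endothelial markers, 4 of 12 macrophage markers and 2 of 6 atrial markers. With all arrays 1 gene of these lists was called, the atrial Bmp10 (lower), and without Control replicate 1 Myod1 and Myl4 were called higher. Bmp10 was dim, under 100 on every array, at 17.0 and 27.9 against 85.4 and 61.6. Myod1 was dim on the arrays other than Control replicate 1, at 54.7 and 40.4 against 4.26.

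**Figure D4:**
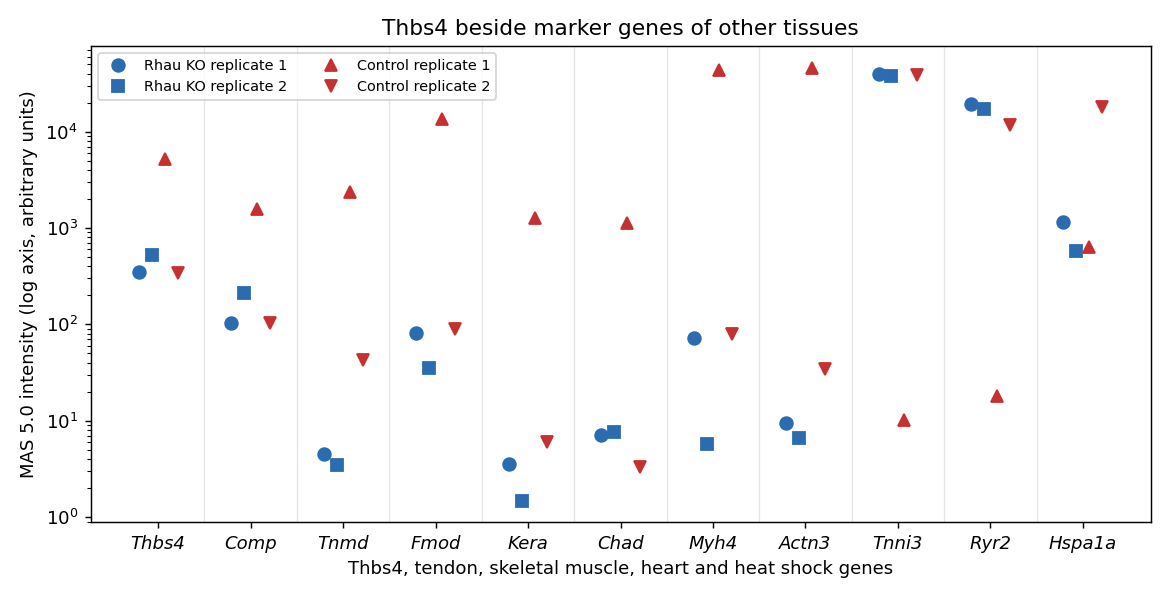
MAS 5.0 intensity (log axis) of Thbs4 beside Comp, tendon (Tnmd, Fmod, Kera, Chad), skeletal muscle (Myh4, Actn3), heart (Tnni3, Ryr2) and heat shock (Hspa1a) genes, with 1 point per array. Control replicate 1 (upward triangle) lies far above the other arrays for Thbs4 and the tendon and skeletal muscle genes and far below them for Tnni3 and Ryr2, and Control replicate 2 (downward triangle) is alone at the top for Hspa1a.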

How the data were processed

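The authors extracted total RNA with Trizol, labelled it with a 3' IVT kit and hybridised it to Affymetrix mouse genome arrays. Per the study's methods and the submitters' processing notes, scans were read with Command Console 3.1 and normalized by the MAS 5.0 algorithm in GeneSpring 11.0. The values analysed are the deposited MAS 5.0 intensities, which the authors scaled linearly; their mean, trimmed by 2% at each end, is 500.0 on each of the 4 arrays. On an array, 51.8% to 54.0% of probe sets were under 100, and the number of arrays limits the precision.

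Of 45101 probe sets, 64 controls were left out; 34958 carried 1 gene symbol in the platform annotation, 932 several and 9211 none. A probe set that Thbs1 shares with another gene was therefore not used. Each of 18193 genes was represented by its brightest probe set (highest mean of log2 intensities). Groups came from the sample titles. Log2 intensities, Rhau KO minus Control, were fitted in R 4.3.3 by the lmFit function of limma 3.58.1 followed by eBayes with a trend, and Benjamini-Hochberg adjustment ran over all genes (threshold 0.05). Further probe sets were fitted over all probe sets other than controls. Genes were also called at a fold of 2 with an unadjusted p under 0.05. The code was tested on simulated arrays. Python 3.11.15, numpy 2.4.6, pandas 2.3.3, scipy 1.17.1 and matplotlib 3.10.9 were used.

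The members and gene lists were chosen with earlier results of these data known, and no set test was run. Named were every member, up to 4 genes per list in order of p, the array checks Dhx36, Esr1, Tnni3, Myh4 and Hspa1a, and the 3 nearest genes of the 3 members with the widest range. Genes named outside this rule (among them Thbs3, Col1a1, P4ha1, Serpinh1, Tcf21, Fmod, Scx, Ryr2 and those called at a fold of 2) were chosen after their values were seen. Alternatives changed the prior (no trend), the scaling (quantile normalization or median centring), the pseudocount (32), the filter (brighter genes only), the summary of probe sets (their mean, or each singly), the design (replicate number as a block), the test (the methods' t-test) and the arrays (each left out in turn). Reading the gene lists without Control replicate 1 was an addition made after seeing the data.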

Additional observations from a re-analysis of the deposited data

How the results depend on the processing

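Of 106 log2 differences of single genes under alternative settings, 90 kept their sign and their side of the adjusted threshold, 6 passed it and 10 turned in sign. The number of all genes called at a fold of 2, 599 with the settings of the report, was 338 with a pseudocount of 32, 167 in the brighter genes alone (7 of the 9 genes lie there), 351 with the methods' t-test and 1514 over every probe set, and ranged from 285 (without Rhau KO replicate 2) through 287 (without Rhau KO replicate 1) and 820 (without Control replicate 1) to 3282 (without Control replicate 2). Thbs1 was the 1 gene of the 9 called lower, and 0 were called higher, under all of these except without Control replicate 2, which gave 5 lower and 2 higher. The median log2 difference of the 9 genes was -0.78 in the report, ranged from -1.34 to -0.22 as each array was left out, and with all arrays was -0.19 when each gene was averaged over its probe sets and -0.23 over the 18 probe sets. Thbs2 turned to -0.02 with median centring, which moved every difference by -0.13, to -0.59 without Control replicate 2 and to -0.16 without Rhau KO replicate 1. Sparc turned to 0.09 with the mean of all probe sets, which includes a dim one, and to 0.21 without Control replicate 2. Without Control replicate 1, Thbs4 turned to 0.31, Postn to -0.68, Tnc to 0.00064, Timp1 to -0.28 and Lox to 0.10, while Thbs2 (0.79) and Sparc (-0.52) kept their sign. Without Control replicate 2, limma gave an adjusted p under 0.05 for Thbs1 (-2.22), Thbs4 (-3.60), Postn (1.03), Fn1 (-1.34), Timp1 (2.68) and Lox (-2.18), but not for Tnc (-2.61). In that setting the Control label is Control replicate 1 alone, the array unlike the others in Tnni3 and Myh4. The part of single transcripts or tissues in these changes was not tested. Where 1 array is left in a group, it is assumed to vary like the others.

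With the replicate number as a block, 634 genes were called at a fold of 2, Thbs1 was still the 1 of the 9 called (adjusted p = 0.969 in limma), and the median stayed at -0.78. The labels share only a number: the deviations of Rhau KO replicate 1 and Control replicate 1 correlated at 0.01.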
